A study of Mus musculus with 6 samples.

Results

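The MYC and MAX network was followed across the change from embryonic stem cells (ESCs) to neural progenitor cells (NPCs) through 8 genes: Myc, Mycn, Mycl, Max, Mxi1, Mxd4, Mnt and Mga. They were chosen as named members of the network by their Ensembl identifiers, and all 8 had a row among the 17144 genes on the arrays. Earlier results of these data were known when the list was chosen, so its counts beside all genes are descriptive only. RNA came from wild type cells of the V6.5 line, a blastocyst derived mouse line of 129SvJae/C57B6 F1 background, and was hybridized to Affymetrix mouse expression arrays, 3 biological replicates of each cell type and 1 array per replicate. The ESCs were grown in serum with LIF. The NPCs were made from the same line in vitro and were grown on polyornithine and laminin, in N3 medium to which bFGF and EGF were added. All 6 arrays trace back to a single cell line with no genetic change between the groups. Medium and growth factors differ fully between them, so cell type and culture condition cannot be told apart. The substrate of the ESCs is not stated here. Expression is given on a log2 scale as robust multi-array average (RMA) values, from a method that corrects background, equalizes the arrays and condenses the probes of a gene into 1 value. A gene was called differentially expressed when its adjusted p was under 0.05 and its group means differed by more than 1.5-fold.

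MYC, MYCN and MYCL are related basic helix-loop-helix leucine zipper proteins that bind DNA only as dimers with MAX, and the dimers activate genes for growth, ribosome production and cell division. MAX also pairs with MXI1, MXD4 and MNT, which bring SIN3 and histone deacetylases to the same E-box sites and repress them, and with MGA, a very large protein that also carries a T-box domain and belongs to the polycomb complex PRC1.6. MYC proteins are short-lived growth regulators in pluripotent cells, and Mycn has a known role in the embryonic nervous system. MAX lacks an activating domain of its own.

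Promoter sequence is shown for the called genes that have an entry among the RefSeq promoters (GRCm38.p6), and for Max, the shared partner. Of the 8 genes, 7 matched, with 9 windows among them, and Myc did not. Each line runs 5′ to 3′ on the strand of the gene, from 250 bases before the start to 10 bases past it. Capitals mark CACGTG, the E-box that MYC-MAX dimers bind, and TTTGGCGC or its reverse complement, a form of the E2F site.
Mycn, chr12:12941827-12942086, minus strand: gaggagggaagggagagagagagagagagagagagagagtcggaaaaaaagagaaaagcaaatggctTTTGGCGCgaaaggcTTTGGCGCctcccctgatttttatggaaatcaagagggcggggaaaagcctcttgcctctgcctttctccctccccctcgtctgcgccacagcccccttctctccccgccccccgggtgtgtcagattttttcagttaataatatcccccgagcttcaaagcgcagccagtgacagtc
Mxd4, chr5:34187701-34187960, minus strand: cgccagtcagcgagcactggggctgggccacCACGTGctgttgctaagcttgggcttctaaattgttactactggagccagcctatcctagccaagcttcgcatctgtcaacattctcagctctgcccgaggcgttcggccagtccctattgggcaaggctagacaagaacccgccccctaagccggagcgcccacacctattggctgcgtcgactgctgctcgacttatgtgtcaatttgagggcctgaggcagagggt
Max, chr12:76962239-76962498, minus strand: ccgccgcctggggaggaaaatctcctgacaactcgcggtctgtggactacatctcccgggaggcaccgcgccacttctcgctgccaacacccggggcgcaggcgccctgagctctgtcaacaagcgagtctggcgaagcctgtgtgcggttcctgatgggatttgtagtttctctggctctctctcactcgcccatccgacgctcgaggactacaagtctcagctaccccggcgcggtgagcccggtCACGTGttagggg
Mga, chr2:119896978-119897237, plus strand: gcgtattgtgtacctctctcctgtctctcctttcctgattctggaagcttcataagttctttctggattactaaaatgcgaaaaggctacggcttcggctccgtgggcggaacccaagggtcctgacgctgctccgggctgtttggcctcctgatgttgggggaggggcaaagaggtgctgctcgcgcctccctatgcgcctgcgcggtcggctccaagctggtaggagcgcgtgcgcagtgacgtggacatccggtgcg
An E-box was found in the windows of Mxd4, Max and Mnt, beginning 219, 3 and 123 bases before the start. It has the same letters on both strands and was present in 7.15% of the 32851 promoter windows of the same 300 bases (250 before the start and 50 after). The Mycn window held no E-box, but carried TTTGGCGC at 183 and 168 bases before the start, which 0.514% of all windows held on either strand. That motif was searched after the Mycn sequence had been seen. The letters describe these windows only, and binding was not measured here.

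Among the 8 genes, the RMA values of Myc and Mycn changed most, in opposite directions. Myc rose 15.3-fold and Mycn fell 14.4-fold from ESCs to NPCs, while Mycl did not pass the fold threshold. The direction of Mycn holds for the deposited RMA value only, because a separate summary of these arrays in the study, which takes the brightest probe set of a gene, places Mycn higher in NPCs. Single probe sets were not analysed here, and the cause was not tested. Among the partners and repressors, Mxd4 rose 8.39-fold and Mga fell 2.61-fold. Max, Mxi1 and Mnt were not called. Thus 4 of the 8 genes were called, 2 in each direction by the RMA values. With Mycn set aside, 2 were called higher and 1 lower. The call was made at 34.1% of all genes, 15.4% higher in NPCs and 18.7% lower. The median absolute difference was 0.95 on the log2 scale over the 8 genes and 0.33 over all genes, and the signed medians were -0.21 and -0.036. The median of 0.95 lies in the gap between the sizes of Max (difference 0.52) and Mga (-1.38). With Mycn set aside it would be the 0.52 of Max.

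**Figure D1:**
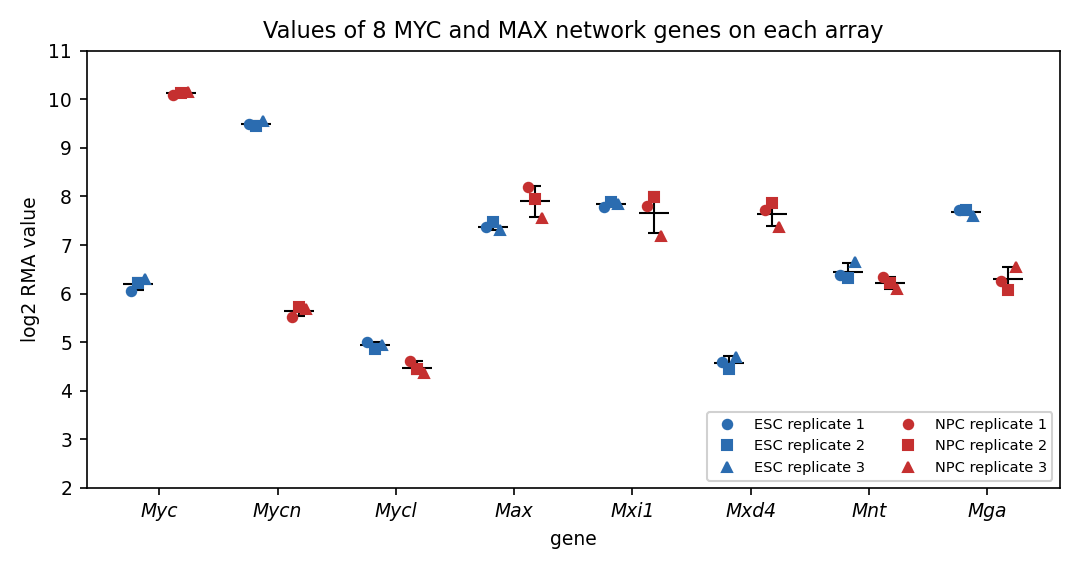
Log2 RMA value (vertical axis) of each of the 8 genes (horizontal axis) on each array, with ESCs in blue, NPCs in red and a symbol for each replicate. Black bars are the mean and SD of 3 arrays. By these RMA values Myc is higher and Mycn lower in NPCs with no overlap between the cell types. A separate summary of the arrays in the study places Mycn higher in NPCs. Mxd4 goes from a mean of 4.58 to 7.65. Levels of different genes are not comparable, since each gene has its own probes.

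Myc (ENSMUSG00000022346_at), the founding member of the family, read 6.06, 6.22 and 6.30 on the log2 scale in ESC replicates 1 to 3. In NPC replicates 1 to 3 it read 10.08, 10.13 and 10.16. Every NPC array thus lay above every ESC array, and the NPC arrays were within 0.078 of each other. The means were 6.19 ± 0.12 (SD, n = 3 arrays) in ESCs and 10.12 ± 0.040 (SD, n = 3 arrays) in NPCs. The log2 difference was 3.93 (SE 0.090, Benjamini-Hochberg adjusted p = 1.56e-07 over all genes, limma), and its 95% interval ran from 3.72 to 4.15. It was the 93rd largest rise of the 17144 genes. In percentile among all values of an array, a position that also depends on how well a gene's probes hybridize, Myc went from 56.0 ± 1.65 (SD, n = 3 arrays) to 95.7 ± 0.26. The RNA came from whole cultures, in which a difference in the number of cells that express a gene and a difference in RNA per cell cannot be told apart.

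Mycn (ENSMUSG00000037169_at), the N-myc gene, went the other way by its RMA value. It read 9.50, 9.44 and 9.54 in ESC replicates 1 to 3 and 5.52, 5.72 and 5.69 in NPC replicates 1 to 3. The lowest ESC array was 3.72 above the highest NPC array on the log2 scale. With means of 9.50 ± 0.051 (SD, n = 3 arrays) and 5.65 ± 0.11, Mycn fell by 3.85 on the log2 scale (SE 0.087, adjusted p = 1.50e-07 in the same limma fit, 95% interval -4.06 to -3.64). It was the 204th largest fall. Its percentile went from 92.3 ± 0.44 to 50.5 ± 1.34 (SD, n = 3 arrays), so in NPCs it stood close to the middle of the array. No detection call was used here, so whether Mycn transcript was still present in NPCs was not settled. The table holds 1 value per gene, so whether the separate probes of Mycn moved together was not analysed here.

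Mycl (ENSMUSG00000028654_at), the L-myc gene, read 5.00, 4.85 and 4.95 in ESCs and 4.61, 4.46 and 4.36 in NPCs. All NPC arrays lay below all ESC arrays, with a gap of 0.24 on the log2 scale between the nearest arrays. The difference of -0.46 (SE 0.096) had an adjusted p of 0.00576 in the limma fit. Its size was 1.37-fold, under the 1.5-fold threshold, and the gene was not called. The values lay low in the arrays, at percentiles of 39.4 in ESCs and 34.8 in NPCs.

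Within an array, the difference between Mycn and Myc turned over between the cell types. Mycn minus Myc was 3.30 ± 0.12 (SD, n = 3 arrays) on the log2 scale in ESCs and -4.48 ± 0.074 in NPCs, a turn of 7.78, which rests in part on the RMA value of Mycn and its direction. Mycl minus Myc went from -1.26 ± 0.18 to -5.65 ± 0.17. Mycn minus Mycl, which also rests on the RMA value of Mycn, went from 4.56 ± 0.056 to 1.17 ± 0.23. These differences show that the genes changed unequally, not which of them had more transcript. For each of the 3 pairs the arrays of the cell types did not overlap. With so few arrays the smallest p that a two-sided exact permutation test allows is 0.1, so these differences were not tested further.

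**Figure D2:**
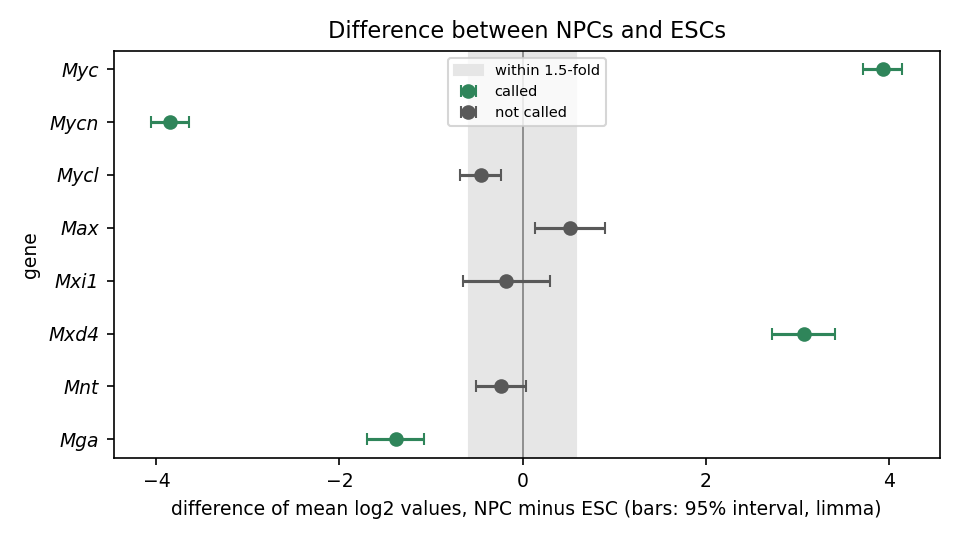
Difference of mean log2 values, NPC minus ESC (horizontal axis), for each gene (vertical axis), with the 95% interval from limma. Called genes are green, the others grey, and the shaded band marks differences within 1.5-fold. By the RMA values, Myc at 3.93 and Mycn at -3.85 lie on opposite sides at nearly the same distance from 0. The intervals of Mxi1 and Mnt include 0.

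Max (ENSMUSG00000059436_at), the partner that all of these proteins share, gave 7.38, 7.47 and 7.30 in ESCs and 8.19, 7.95 and 7.55 in NPCs. The NPC arrays were all above the ESC arrays, but NPC replicate 3 lay only 0.086 above the highest ESC array. The difference was 0.52 on the log2 scale (SE 0.16, adjusted p = 0.0329 from limma, 95% interval 0.13 to 0.90), or 1.43-fold, and the gene was not called. This result depended on NPC replicate 3, since without that array the difference was 0.69 (adjusted p = 0.000467, limma) and Max was called. Without any other single array the adjusted p was between 0.0668 and 0.108. Median centring of the arrays gave a difference of 0.67, which is also past the fold threshold.

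Of the 4 repressors that pair with MAX, 1 rose, 1 fell and 2 were not called, beside 15.4% of all genes called higher, 18.7% called lower and 34.1% called in all. With 4 genes, such a count says nothing particular to the repressors. Mxd4 (ENSMUSG00000037235_at), a MAD family repressor linked with cells that leave the cycle, was at 4.59, 4.45 and 4.70 in ESCs and at 7.72, 7.87 and 7.36 in NPCs. The gap between the highest ESC array and the lowest NPC array was 2.66 on the log2 scale. The means of 4.58 ± 0.13 and 7.65 ± 0.26 (SD, n = 3 arrays) differed by 3.07 (SE 0.14, adjusted p = 3.66e-06, limma, 95% interval 2.73 to 3.41). Mxd4 had the 224th largest rise of all genes and went from percentile 34.2 ± 1.21 to 75.2 ± 3.32. Its ESC values lay low in the arrays, and whether Mxd4 transcript was present in ESCs was not settled.

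Mga (ENSMUSG00000033943_at), the T-box protein of the PRC1.6 complex, measured 7.71, 7.73 and 7.60 in ESCs. In NPCs it measured 6.26, 6.07 and 6.56. The gap between the lowest ESC array and the highest NPC array was 1.05 on the log2 scale. Mga fell by 1.38 on the log2 scale (SE 0.13, adjusted p = 0.000109, limma, 95% interval -1.69 to -1.07). The spread was 0.069 (SD, n = 3 arrays) in ESCs and 0.24 in NPCs, where replicate 3 was the highest array.

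Mxi1 (ENSMUSG00000025025_at), another MAD family repressor, gave 7.77, 7.89 and 7.85 in ESCs and 7.81, 7.99 and 7.19 in NPCs. The cell types overlapped, with NPC replicate 2 the highest and NPC replicate 3 the lowest of the 6 arrays. The difference was -0.18 on the log2 scale (SE 0.20, adjusted p = 0.523, limma), and its 95% interval from -0.65 to 0.29 leaves room for a change of either sign. Without NPC replicate 3 the difference was 0.061 (adjusted p = 0.612, limma), of the opposite sign. Mnt (ENSMUSG00000000282_at), a repressor present in many tissues that opposes MYC, gave 6.39, 6.31 and 6.65 in ESCs and 6.34, 6.21 and 6.09 in NPCs. These values overlapped as well. The difference was -0.24 (SE 0.12, adjusted p = 0.143, limma, 95% interval -0.51 to 0.041).

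Across the network, 6 of the 8 genes had an adjusted p under 0.05, against 49.0% of all genes, and the same 6 had no overlap between the cell types, against 58.7% of all genes. By the RMA values the 6 were Myc, Mxd4 and Max, with NPCs above, and Mycn, Mycl and Mga, with NPCs below. Over all genes, the median log2 difference was -0.036 as deposited and 0.12 with median centring of the arrays, a shift of the scale that is small beside the differences of Myc, Mycn, Mxd4 and Mga.

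**Figure D3:**
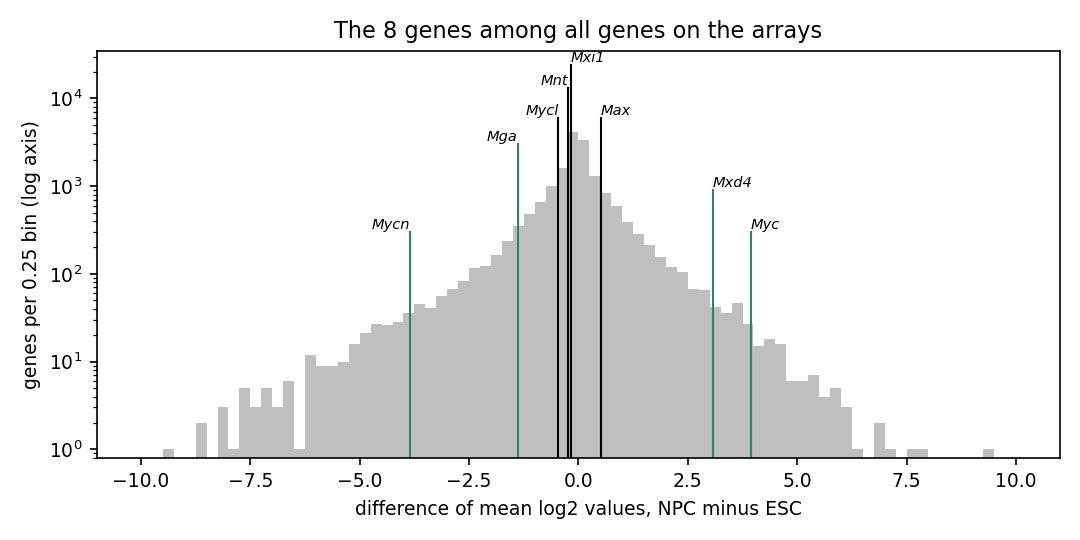
Number of genes on a log axis by their difference of mean log2 values, NPC minus ESC, in bins of 0.25, over 17144 genes. Vertical lines place the 8 genes, green where called and black where not, and their heights carry no value. By the RMA values, Myc, Mycn and Mxd4 lie in the thin tails. There, 1.67%, 1.78% and 3.35% of all genes had differences at least as large in size. Mycl, Max, Mxi1 and Mnt lie in the bulk. Differences at least as large in size were found in 41.7%, 38.5%, 64.8% and 57.8% of all genes.

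The NPC arrays were not alike for all members. NPC replicate 3 stood apart from the other NPC arrays over the whole array, with correlations of 0.978 to 0.979 across genes against 0.997 between NPC replicates 1 and 2, and at 686 genes it lay more than 1 from the mean of those replicates on the log2 scale. None of the 8 genes was among them. The largest gaps of replicate 3 from that mean were -0.71 in Mxi1, -0.52 in Max, -0.43 in Mxd4 and 0.39 in Mga. Gaps of at least these sizes were found in 7.85%, 14.1%, 18.6% and 21.4% of all genes. In Myc and Mycn the gaps were 0.051 and 0.065, and 82.8% and 78.4% of all genes had gaps at least as large. Without NPC replicate 3 the difference was 3.92 in Myc, -3.87 in Mycn, 3.21 in Mxd4 and -1.51 in Mga, each still called.

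**Figure D4:**
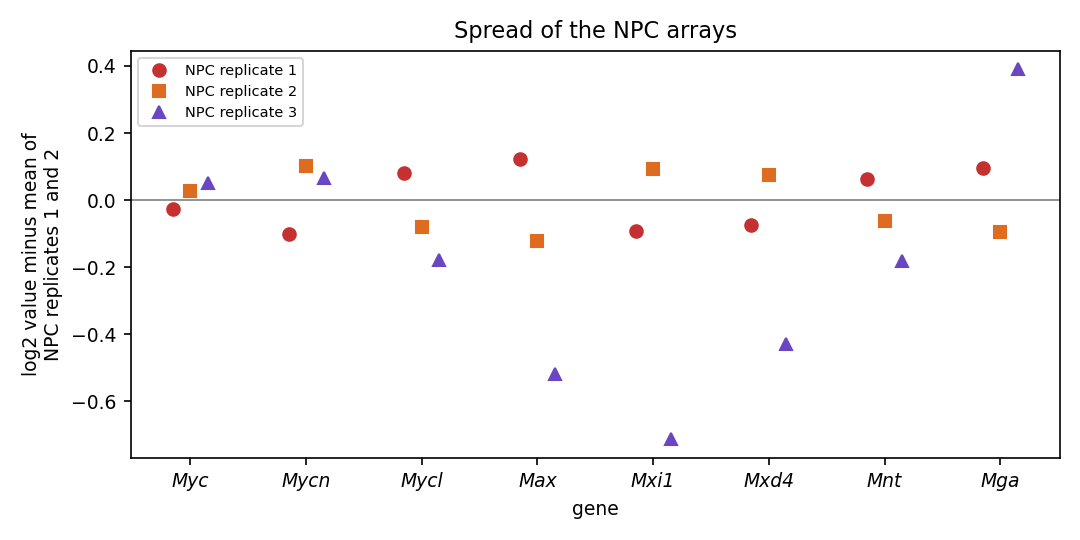
Log2 value of each NPC array minus the mean of NPC replicates 1 and 2 (vertical axis) for the 8 genes (horizontal axis), with a symbol and colour for each replicate. Replicate 3 lies farthest from that mean in Mxi1 (-0.71) and Max (-0.52), and close to the other arrays in Myc and Mycn.

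Few markers of cell type could be named. Pou5f1, a pluripotency factor, read 12.42 to 12.46 in ESCs and 3.61 to 3.83 in NPCs. Of 8 neural progenitor markers, 6 could be named, among them Nes and Fabp7, and these 6 were called higher in NPCs. Since the tables that gave the names list mostly genes that rose, named markers other than Pou5f1 were nearly bound to be called higher, and their counts are no check of the labels. Of 6 neuron markers, Dcx and Syt1 could be named, and both were called higher in NPCs. Their mean log2 value was 3.51 to 3.68 in ESCs and 5.90, 6.04 and 4.33 in NPC replicates 1 to 3. S100b, the only nameable of 4 astrocyte markers, was at 3.98 ± 0.031 (SD, n = 3 arrays) in ESCs and at 6.32, 6.13 and 7.02 in NPCs. Neuron markers were thus lower, and the astrocyte marker higher, in NPC replicate 3 than in the other NPC arrays. That array was also the lowest NPC array for Mycl, Max, Mxi1, Mxd4 and Mnt and the highest for Myc and Mga. The part of other cell types in these results was not tested.

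Few other genes of the pathway could be named. Beyond the 8 members, names came from tables of the study that list mostly genes that rose, so genes that fell are nearly absent and the counts say nothing of balance. No gene could be named of the other MAX and MLX network (0 of 5) or of the MYC cofactors (0 of 17). In PRC1.6, the complex of MGA and MAX, 2 of 11 genes were named, and both rose. Yaf2, which binds the RING proteins of the complex, rose by 2.97 on the log2 scale (SE 0.27, adjusted p = 8.44e-05, limma). Hdac2, a histone deacetylase, rose by 0.94 (SE 0.11, adjusted p = 0.000283, limma). Tdrkh, a germline gene of the piRNA pathway and 1 of the 9 germline genes listed for PRC1.6, rose by 2.79 (adjusted p = 1.43e-06, limma).

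Of 26 growth genes that MYC is known to activate, only Ccnd2 was named. This D-type cyclin read 5.61, 5.79 and 5.74 in ESCs and 10.12, 10.07 and 11.13 in NPCs, and rose by 4.73 on the log2 scale (SE 0.27, adjusted p = 9.24e-06, limma). Of 7 genes listed as repressed by MYC, only Cdkn2a was named. Its locus also encodes ARF, which MYC is known to induce, which differs from the heading of the list. Cdkn2a was at 4.81 on each ESC array and at 9.15, 8.93 and 6.31 in NPCs, and rose by 3.32 (SE 0.69, adjusted p = 0.00572, limma). NPC replicate 3 was the lowest NPC array for Cdkn2a and the highest for Ccnd2.

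The genes whose pattern over the 6 arrays was most like that of Myc, by Euclidean distance between log2 values centred on each gene's mean, were G0s2 (distance 0.22) and Neto2 (0.23). They were the nearest of all genes on the arrays, named or not. G0s2 rose by 3.98 on the log2 scale and Neto2 by 3.96, beside 3.93 for Myc. Since the arrays of a cell type lie close together for Myc and Mycn, the distance mainly reflects the size of the difference between the cell types. A small distance therefore says little beyond a difference of similar size. For Mycn the nearest named genes were Rfx2 (distance 2.16), Mga (3.05) and Pou2f1 (3.17), but 608 genes without a name lay closer than Rfx2. The nearest of these were ENSMUSG00000030117 (distance 0.15) and ENSMUSG00000031523 (0.18), which fell by 3.91 and 3.79.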

How the data were processed

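RNA was measured on 1 Affymetrix array for each of 3 ESC and 3 NPC replicates, and groups came from the sample labels. The authors deposited log2 values made by RMA, with probes grouped by Ensembl gene through an updated annotation (BrainCDF); its version and build were not given in the sources used here. Of 17208 rows, 64 control probe sets were left out. Arrays give no counts, and their number limits the precision. All 17144 genes were fitted without covariates by lmFit and eBayes (limma 3.58.1, R 4.3.3) with Benjamini-Hochberg adjustment, and the moderated Welch test that the methods name served as an alternative. Other alternatives were a variance trend, blocking on the replicate number, quantile normalization, median centring, a filter at the median, a fold threshold of 2 or none, and leaving out each array. On simulated NPC and ESC arrays of 17144 genes limma called 75% of genes changed 2-fold, 99% of those changed 4-fold, and 4 unchanged genes. In that simulation 200 genes were changed, with independent noise and 1 SD per gene for both cell types. Far more genes were called on the real arrays, so these rates need not hold there. Members were named by identifier. The other named genes were matched by their 6 array values, within 0.0001, to rows of the study's tables (2004 genes). The rule for naming took the 8 members, called genes of fixed pathway lists (at most 4 a list), and the 3 nearest named patterns for Myc and Mycn, of which 1 is not reported here. Members and lists were chosen with earlier results of these data known. Python 3.11.15, pandas 2.3.3, SciPy 1.17.1 and matplotlib 3.10.9 were used.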

Additional observations from a re-analysis of the deposited data

How the results depend on the processing

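Myc, Mycn, Mxd4 and Mga kept their direction and were called under each of the 14 alternatives. All of these start from the same RMA value per gene, so none bears on the direction of Mycn in the study's other summary of the arrays, which is the opposite one. Under quantile normalization, median centring and the other settings that keep all arrays, the log2 difference lay between 3.93 and 4.09 in Myc, -3.85 and -3.70 in Mycn, 3.07 and 3.22 in Mxd4, and -1.38 and -1.23 in Mga. Median centring moved smaller differences by over 1.5 times, to -0.30 in Mycl, -0.022 in Mxi1 and -0.081 in Mnt, with no change of sign. With each array left out in turn it lay between 3.87 and 3.99 in Myc, -3.89 and -3.79 in Mycn, 2.96 and 3.21 in Mxd4, -1.51 and -1.27 in Mga, -0.53 and -0.40 in Mycl, 0.37 and 0.69 in Max, -0.34 and 0.061 in Mxi1, and -0.30 and -0.14 in Mnt. Max was called without NPC replicate 3 (0.69), under median centring (0.67) and without a fold threshold (0.52), and Mycl without a fold threshold (-0.46). Mxi1 changed sign without NPC replicate 3 (0.061), and was called in no setting, as was Mnt. The causes were not tested, except that dropping the threshold admits small differences by construction. Mycl was left out by the filter at the median. The cell types share replicate numbers 1 to 3, but across genes the deviations of same-numbered arrays from their group means correlated at only 0.026, 0.011 and -0.0064, which does not pair them. With the replicate block the differences were the same, at 3.93 in Myc and -3.85 in Mycn (adjusted p = 1.72e-05 and 2.07e-05, limma), and it changed no call of the 8 genes. Over all genes 5851 were called, 45.1% of them higher in NPCs, against 55.6% under median centring and 50.6% after quantile normalization, and a threshold of 2-fold left 3592, against 8407 without one. Low array values, such as those of Mycl in both cell types and of Mxd4 in ESCs (mean 4.58), lie nearer to background and can understate a fold change.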
